A study of Mus musculus with 8 samples.

Results

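The genes described here are the translation initiation factors (symbols beginning with Eif1 to Eif6) and the translation elongation factors (Eef1 and Eef2), with the enzymes that carry these prefixes because they act on the factors. Members were taken from the read count table of whole mouse ovaries by mouse gene symbol, leaving out pseudogenes, and 71 of the 24823 gene IDs in the table matched. Reads were sufficient to test 65 of the 71 members, among 15257 genes tested in all. RNA sequencing was performed on 4 libraries of ovaries labelled cKO and 4 labelled CON, all collected on postnatal day 4 (PND4). The cKO females had the genotype Nr5a2 f/f, Amhr2-cre Tg/+, and exons 4 and 5 of *Nr5a2*, the gene of the nuclear receptor LRH-1, are excised in cells that express the Cre recombinase. CON females were littermates of the genotype Nr5a2 f/f, Amhr2-cre +/+, so both groups carried the floxed alleles and only cKO carried Cre. All mice were kept on the C57BL/6 background. Cre was driven by the *Amhr2* promoter, which is active in granulosa cells, whereas the libraries represent every cell type of the ovary. The comparison asks which factors differed in abundance between cKO and CON ovaries at the close of primordial follicle formation.

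Initiation begins when eIF2 brings the initiator methionyl-tRNA to the small ribosomal subunit, where eIF1, eIF1A, eIF5 and the large scaffold eIF3 prepare it to scan. The cap-binding complex of eIF4E, eIF4G and the helicase eIF4A delivers the mRNA, and eIF5B joins the large subunit once the start codon is found. Elongation then cycles between eEF1A, which delivers each aminoacyl-tRNA, its exchange factor eEF1B, and eEF2, which moves the ribosome along the mRNA. Oocytes stockpile mRNA whose translation is held back, and granulosa cells of growing follicles translate actively, so the supply of these factors is of interest at follicle formation.

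The libraries held 14649243 to 29066847 reads counted in genes, and their scaling factors (TMM, trimmed mean of M-values) lay between 0.979 and 1.03. Values below are CPM, the reads of a gene scaled to a common library total with this factor, given in the order of libraries 1 to 4 of each genotype. Markers of both expected cell types were present in every library: *Ddx4*, an oocyte RNA helicase, had 43.9 to 55.9 CPM in cKO and 27.9 to 41.6 CPM in CON, and *Foxl2*, a pre-granulosa transcription factor, had 146 to 186 CPM in cKO and 133 to 158 CPM in CON. Of 9 pre-granulosa markers, 3 were higher and 1 lower in cKO at an unadjusted p under 0.05 in edgeR (15.5% and 13.3% of all genes). The lower one was *Amhr2*, with 48.6 to 79.9 CPM in cKO and 81.8 to 112 CPM in CON. *Nr5a2* itself had 30.96, 23.05, 27.9 and 27.8 CPM in libraries labelled cKO, against 18.4, 16.3, 15.01 and 12.2 CPM in libraries labelled CON. Reads over all its exons were thus more abundant in cKO, and since this count includes exons outside the deleted exons 4 and 5, it checks nothing of the deletion. The group labels, on which every direction below rests, are therefore not verified by this value (log2 fold change 0.82, SE 0.13, adjusted p = 0.0128). Libraries also differed in other cell types. Summed over 6 smooth muscle markers, cKO libraries had 556, 848, 1704 and 2283 CPM, against 2078, 2862, 3007 and 2405 CPM in CON. Summed over 10 neutrophil markers, cKO had 12.02 to 21.4 CPM and CON had 98.4, 17.6, 164 and 22.5 CPM, and immediate-early genes were high in cKO 1 and cKO 2.

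Translation factors that differed were lower in cKO ovaries. With the quasi-likelihood test of edgeR and a Benjamini-Hochberg adjusted p under 0.05 over all genes, 10 of 65 tested members passed, where 6.92% of all genes tested did. All 10 members fell and none rose, where 3.28% of all genes fell and 3.64% rose. Those that fell were the elongation factor subunits *Eef1b2*, *Eef1g* and *Eef1a1*, the eIF3 subunits *Eif3h*, *Eif3i*, *Eif3e*, *Eif3f* and *Eif3k*, and the factors *Eif5a* and *Eif1a*. Their log2 fold changes lay between -0.44 and -0.21, so that CPM fell by 13.6% for the least changed and fell by 26.2% for the most changed. With edgeR or DESeq2, no member combined the adjusted p with a fold change of 1.5, which 0.518% of all genes did on the lower side and 0.891% on the higher side. In whole ovaries, fewer cells of a type rich in a transcript and less of that transcript per cell cannot be told apart. No label names a litter or batch, so each of the 8 libraries was treated as a sample of its own. The p-values set the difference between genotypes against the spread among libraries of the same genotype. Libraries from the same litter may depend on each other, which could not be checked.

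**Figure D1:**
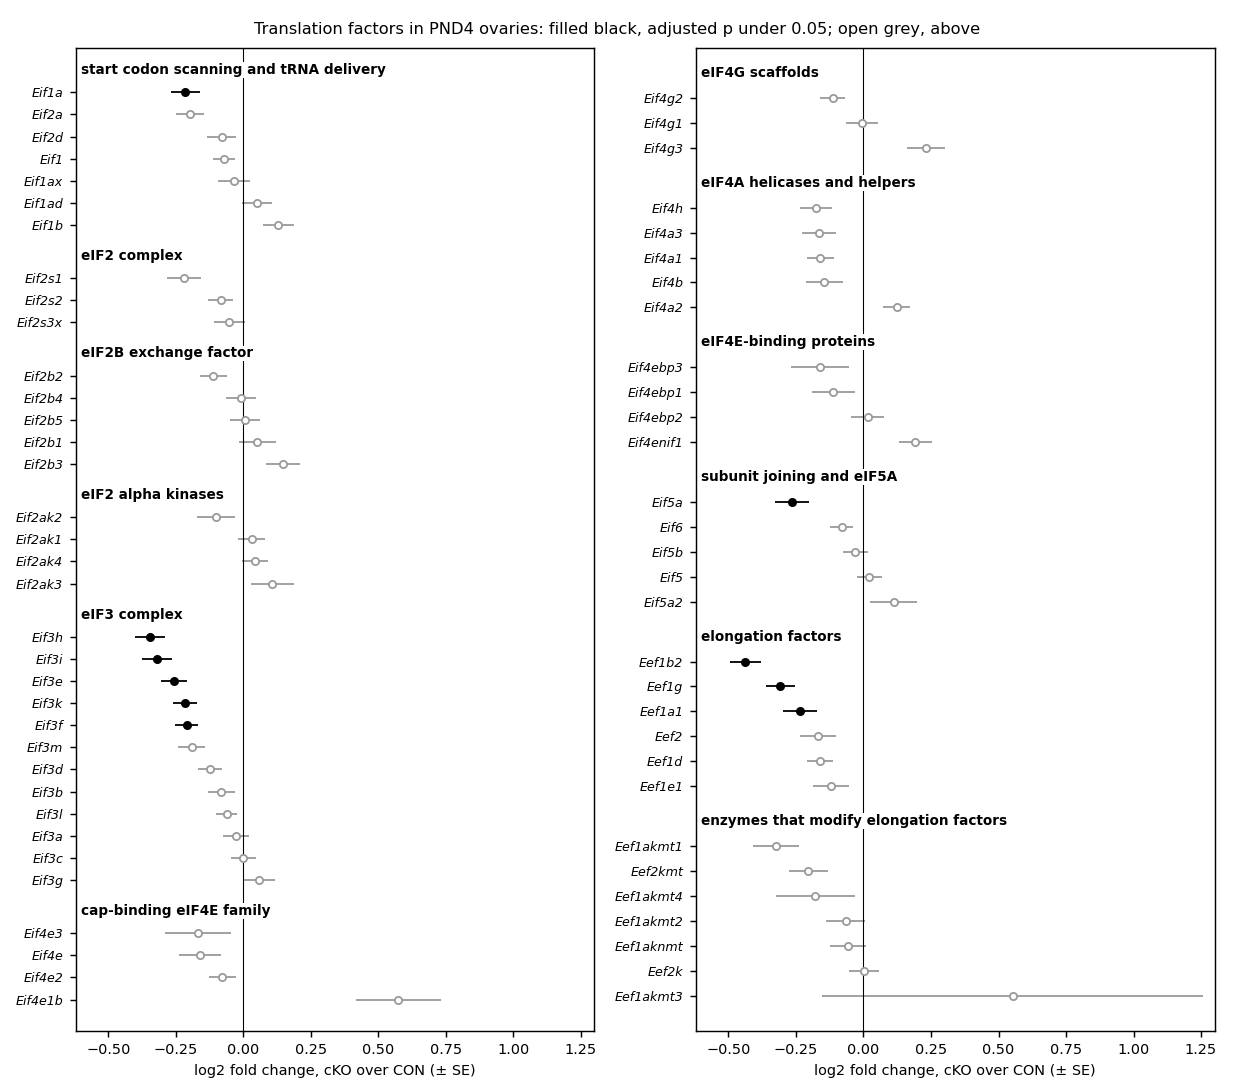
Log2 fold change of cKO over CON for the 65 tested translation factors, grouped by role, with bars of 1 standard error. Filled points mark the 10 members with an adjusted p under 0.05, all of them left of the line at 0, and open points mark the other 55.

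The counts that follow are over all tested members and include the 10 that passed, all of which were lower in cKO without overlap. In the other 55 tested members, the mean deviation in log2 CPM from the gene mean was -0.042, -0.052, -0.013 and 0.020 in cKO 1 to 4. In CON 1 to 4 it was -0.0021, 0.011, 0.054 and 0.023, so for these 55 the libraries of the genotypes overlapped. At an unadjusted p under 0.05, 22 members were lower (33.8%, background 13.3%) and 6 were higher (9.23%, background 15.5%). The sign was negative for 47 of 65 members (72.3%), against 50.1% of all genes tested. The median log2 fold change was -0.08 over the members and -0.00047 over all genes. In 26 members (40%) all 4 cKO libraries lay below all 4 CON libraries, which held for 9.1% of all genes, and in 1 member all 4 lay above, which held for 8.93% of genes. As a share of all assigned reads, the 71 members took 2.30%, 2.20%, 2.16% and 2.17% in cKO libraries, against 2.39%, 2.48%, 2.46% and 2.38% in CON libraries. No cKO library reached the lowest CON library, and 37.0% of the member reads belonged to *Eef1a1* alone.

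Which members passed depended on single libraries and, for *Eef1a1* and *Eif1a*, on scaling and filter. Without CON 2 or without CON 3, no gene of the table passed in edgeR (smallest adjusted p 0.0567 and 0.0613). The members at an unadjusted p under 0.05 were then 20 lower with 3 higher and 18 lower with 5 higher. No share over all genes was computed at this unadjusted p without these libraries. DESeq2 without CON 2 or without CON 3 called 10 and 9 members lower, where 2.93% and 2.81% of all genes fell. Every one of the 10 members kept its sign in each alternative run. With libraries left out this could hardly turn out otherwise, since in all 10 every cKO library lay below every CON library. DESeq2 on all 8 libraries called 18 members lower and 3 higher, where 6.44% and 7.74% of all genes passed in these directions, and the calls it added were *Eif2s1*, *Eif2a*, *Eif3m*, *Eif4a1*, *Eif4h*, *Eif4g2*, *Eef1d* and *Eef1akmt1* on the lower side and *Eif4e1b*, *Eif4g3* and *Eif4enif1* on the higher side.

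Elongation factors formed the group with the lowest median, -0.20 over 6 tested members. All 6 were negative, where 50.1% of all genes were, and 3 fell, where 3.28% did. *Eef1a1*, the tRNA-delivering GTPase, was the most abundant member by reads and by reads per kilobase, and ranked 3 of all 24823 genes by mean CPM. It had 8266, 7535, 7693 and 7954 CPM in cKO, against 8675, 9725, 9521 and 9092 CPM in CON. Even the highest cKO library stayed below the lowest CON library, although cKO 1 came close to CON 1. The log2 fold change was -0.24 (SE 0.06, adjusted p = 0.0496), the weakest of the 10 calls, lost when any library other than CON 1 was left out (adjusted p between 0.0317 and 0.161 over the 8 libraries left out in turn). The call of *Eef1a1* also ended under RLE size factors (adjusted p = 0.0510), library size alone (0.0514), no count filter (0.0669) and removal of the length trend (0.138). *Eef1a1* lies on chromosome 9, 78478453 to 78481724 in GRCm38, and 16.3% of the 100-base stretches of its transcripts also occur in transcripts of other genes, so its count is uncertain to the extent that reads were shared.

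The exchange factor that recharges eEF1A with GTP has a catalytic subunit, *Eef1b2*, and a structural subunit, *Eef1g*. *Eef1b2* (chromosome 1, 63176831 to 63180486) had 419, 435, 434 and 452 CPM in cKO, against 532, 612, 608 and 604 CPM in CON. The difference between the group means exceeded the range of values within either genotype, and CON 1 was the lowest CON library. With a log2 fold change of -0.44 (SE 0.06, adjusted p = 0.0119), it showed the largest decrease of all 65 members. *Eef1g* (chromosome 19, 8967041 to 8978180) had 475, 517, 518 and 539 CPM in cKO, against 603, 653, 641 and 638 CPM in CON, again without overlap, and fell by 0.31 (SE 0.05, adjusted p = 0.0167). For *Eef1g* 32.4% of the 100-base stretches recur elsewhere, so its level is uncertain. *Eef1d*, the other catalytic subunit of the exchange factor, had values from 154 to 172 CPM in cKO and 177 to 186 CPM in CON and did not pass (log2 fold change -0.16, adjusted p = 0.0651).

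*Eef2*, the translocase and number 6 of all genes by mean CPM, had 3309, 2858, 2940.0 and 2842 CPM in cKO, against 3243, 3569, 3368 and 3239 CPM in CON. Here cKO 1 was as high as the CON libraries and the other 3 cKO libraries were below all of them, so the groups overlapped (log2 fold change -0.17, SE 0.07, adjusted p = 0.130). *Eef1e1*, which belongs to the aminoacyl-tRNA synthetase complex, had a log2 fold change of -0.12 (adjusted p = 0.257). *Eef1a2*, the form of eEF1A used by muscle and neurons in adults, had 20 reads over all 8 libraries and was not tested.

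**Figure D2:**
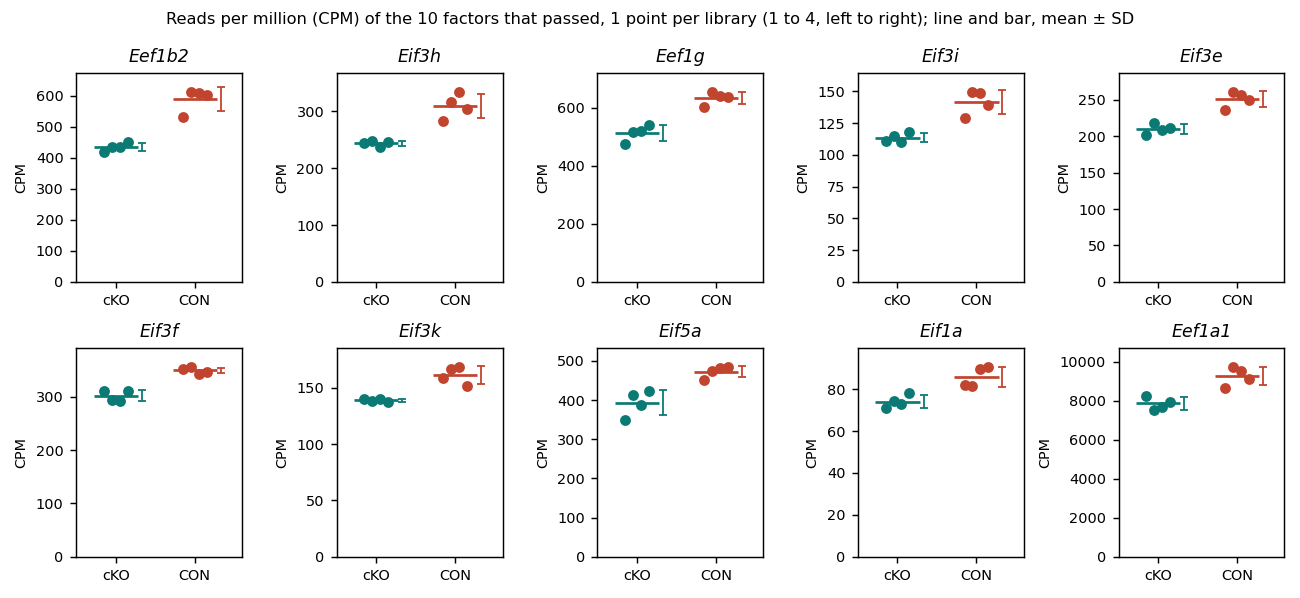
CPM of the 10 translation factors with an adjusted p under 0.05, 1 point per library from 1 to 4 within each genotype, with the group mean (line) and SD (bar). In each of the 10 panels the 4 cKO points lie below the 4 CON points, for *Eef1b2* at 419 to 452 CPM against 532 to 612 CPM.

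The eIF3 complex binds the small ribosomal subunit and holds the other initiation factors in place. Of 14 listed subunit genes 12 were tested, with a median log2 fold change of -0.16. A negative sign was found in 11, where 50.1% of all genes had one, and 5 fell, where 3.28% did. Among all genes at a mean log2 CPM of 6 to 8, 4.16% fell, and at 8 or more 18.5% did. Among the 5, *Eif3e*, *Eif3f*, *Eif3h* and *Eif3k* encode subunits of the core that mammals have and budding yeast lacks, and *Eif3i* encodes a subunit with WD repeats that yeast shares. *Eif3h* (chromosome 15, 51786563 to 51865461) had 244, 247, 237 and 246 CPM in cKO, against 283, 317, 334 and 304 CPM in CON. The cKO libraries lay within a narrow band under the lowest CON library (log2 fold change -0.35, SE 0.06, adjusted p = 0.0136). *Eif3i* (chromosome 4, 129591974 to 129600648) had 111, 115, 110.0 and 118 CPM in cKO, against 129, 149, 148 and 139 CPM in CON. CON 1 was the closest to the cKO libraries for this gene too (log2 fold change -0.32, SE 0.06, adjusted p = 0.0167).

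The other 3 eIF3 genes that passed had log2 fold changes between -0.26 and -0.21. *Eif3e* (chromosome 15, 43250040 to 43282736), a subunit that contacts eIF4G, had 202, 219, 209 and 211 CPM in cKO, against 236, 261, 257 and 250.1 CPM in CON (log2 fold change -0.26, SE 0.05, adjusted p = 0.0223). *Eif3f* (chromosome 7, 108934415 to 108941942) had 312, 295, 292 and 312 CPM in cKO, against 352, 356, 344 and 347 CPM in CON (log2 fold change -0.21, SE 0.04, adjusted p = 0.0303). *Eif3k* (chromosome 7, 28971372 to 28981890), the smallest subunit, had 140.1, 138, 140.1 and 137 CPM in cKO, against 159, 167, 168 and 151 CPM in CON (log2 fold change -0.22, SE 0.05, adjusted p = 0.0313). In all 3 genes the genotypes stood apart, and the cKO libraries of *Eif3k* hardly differed from each other.

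The other 7 tested subunits did not pass. *Eif3a*, the largest subunit and the one with the most reads, had 385, 392, 360.4 and 377 CPM in cKO, against 399, 394, 366 and 383 CPM in CON, and the groups overlapped throughout (log2 fold change -0.03, SE 0.05, adjusted p = 0.755). The other 6 lay between -0.19 for *Eif3m* (adjusted p = 0.0509) and 0.06 for *Eif3g* (0.528), and *Eif3c*, which together with *Eif3a* nucleates the complex, was at -0.00095. In *Eif3m*, *Eif3d* and *Eif3l* all 4 cKO libraries nevertheless lay below all 4 CON libraries, which held for 9.1% of all genes. Whether the subunits that passed differed from those that did not was not tested. *Eif3j1* and *Eif3j2*, near copies that encode the loosely attached subunit, were listed at 0 in every library, which allows up to 0.105 to 0.207 CPM by counting error alone. Of their 100-base transcript stretches, 33.4% and 84.0% are shared, 1915 in each gene, with no partner found outside the members. Most of *Eif3j1* is thus not shared. The annotation used for counting and the handling of shared reads are not stated. These zeros therefore do not show that the genes were silent.

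Of the factors for scanning and tRNA delivery, 1 of 7 fell, where 3.28% of all genes did. *Eif1a* (chromosome 18, 46597704 to 46610225), the autosomal gene of eIF1A, which opens the small subunit for scanning, had 70.9, 74.1, 72.9 and 78.1 CPM in cKO, against 82.2, 81.5, 89.5 and 90.5 CPM in CON. The highest cKO library was just below the lowest CON library (log2 fold change -0.21, SE 0.05, adjusted p = 0.0450), and the call ended with library size alone (adjusted p = 0.0574) or no count filter (0.0518). *Eif2a*, an alternative carrier of initiator tRNA, had 77.7, 73.2, 74.4 and 77.9 CPM in cKO, against 82.1, 93.6, 86.4 and 85.2 CPM in CON, without overlap, but did not pass (log2 fold change -0.20, SE 0.05, adjusted p = 0.0507). *Eif1*, the guardian of start codon choice and the gene of this group with the most reads, had 327, 329, 325 and 326 CPM in cKO, against 345, 332, 353 and 343 CPM in CON (log2 fold change -0.07, adjusted p = 0.276), and 11.2% of its 100-base stretches recur in other genes. Its paralog *Eif1b* had 80.6, 85.3, 78.3 and 76.8 CPM in cKO, against 78.4, 73.7, 73.9 and 67.5 CPM in CON and a positive sign (log2 fold change 0.13, adjusted p = 0.170). The other 3 members, *Eif1ax*, *Eif1ad* and *Eif2d*, lay between -0.08 and 0.05.

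In the eIF2 complex and the enzymes that regulate it no member passed. At an unadjusted p under 0.05 *Eif2s1* was lower and *Eif2b3* higher (13.3% and 15.5% of all genes). *Eif2s1*, the alpha subunit whose phosphorylation slows initiation under stress, had 75.6, 87.2, 82.9 and 88.8 CPM in cKO, against 92.9, 93.1, 104 and 99.6 CPM in CON. Although the groups did not overlap, the adjusted p was 0.0600 (log2 fold change -0.22, SE 0.06). *Eif2s2*, the beta subunit, had 164, 178, 171 and 179.6 CPM in cKO, against 180.2, 180.0, 191 and 183 CPM in CON (log2 fold change -0.08, adjusted p = 0.256), with cKO 2 and cKO 4 close to CON. *Eif2s3x*, the X-linked gamma subunit, had 95.1, 97.1, 84.4 and 98.7 CPM in cKO, against 96.4, 96.9, 102 and 92.9 CPM in CON (log2 fold change -0.05, adjusted p = 0.599). Its libraries overlapped, and 33.7% of its 100-base stretches recur in other genes. Its Y-linked copy *Eif2s3y* had 0 reads in all 8 libraries.

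eIF2B, the exchange factor that reloads eIF2 with GTP, had 5 tested subunit genes with log2 fold changes between -0.11 and 0.15. *Eif2b3* had 24.9, 27.04, 26.7 and 27.2 CPM in cKO, against 24.2, 22.6, 25.2 and 23.5 CPM in CON (adjusted p = 0.151). *Eif2b2* had 39.5, 41.9, 42.2 and 39.6 CPM in cKO, against 45.9, 43.6, 44.1 and 42.7 CPM in CON (adjusted p = 0.185). The pair thus leaned in opposite directions without passing, and *Eif2b5*, the catalytic subunit, had 72.4, 80.9, 69.7 and 77.5 CPM in cKO, against 77.9, 73.7, 74.2 and 73.1 CPM in CON and a log2 fold change of 0.01. The 4 kinases that phosphorylate eIF2 alpha, each tuned to another stress, lay between -0.10 and 0.11 with adjusted p of 0.365 or more. *Eif2ak2* (PKR, the kinase activated by double-stranded RNA) had 41.00, 36.2, 33.9 and 34.1 CPM in cKO, against 37.2, 40.4, 38.7 and 39.7 CPM in CON. *Eif2ak3* (PERK, activated by stress of the endoplasmic reticulum) had 41.6, 44.4, 51.4 and 50.02 CPM in cKO, against 42.2, 40.3, 46.5 and 45.1 CPM in CON. For *Eif2ak1*, the kinase activated by lack of heme, the values were 61.2, 67.5, 64.4 and 64.9 CPM in cKO, against 65.4, 61.9, 64.8 and 60.4 CPM in CON. In each of the 3 kinases the libraries of the genotypes overlapped.

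The highest fold change of the 65 members belonged to the cap-binding family, in which none of 4 tested genes passed. *Eif4e1b*, the eIF4E relative expressed in oocytes, had 26.02, 15.3, 23.4 and 19.1 CPM in cKO, against 16.4, 12.7, 13.8 and 13.7 CPM in CON. Libraries cKO 1, cKO 3 and cKO 4 lay above every CON library, but cKO 2 lay below CON 1. The log2 fold change was 0.57 (SE 0.16, adjusted p = 0.0566), and with single libraries left out the gene passed only without CON 1 or cKO 2 (adjusted p between 0.0383 and 0.153 over the 8 libraries left out in turn). Oocyte markers were also higher in cKO, but not all followed *Eif4e1b* from library to library. Of 12 oocyte markers tested, none of them at 0, 3 rose, where 3.64% of all genes did. At an unadjusted p under 0.05, 11 were higher (15.5% of all genes), and the median log2 fold change of the markers was 0.57. Their summed level was 1382, 1107, 1242 and 1088 CPM in cKO libraries, against 1032, 730.3, 819.6 and 659.8 CPM in CON libraries. In cKO 2 the markers split. There *Ddx4* and *Kit* were at their highest of the cKO libraries (55.9 and 241 CPM). *Gdf9* and *Zp2* were at their lowest (64.7 and 282 CPM), as *Eif4e1b* was. The part of oocyte markers in the values of *Eif4e1b* was not tested.

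**Figure D3:**
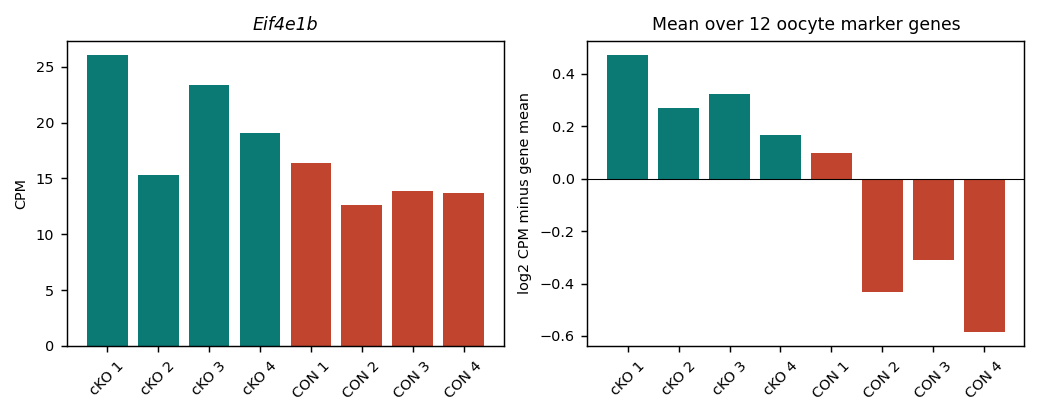
CPM of *Eif4e1b* per library (left) and the mean deviation in log2 CPM of 12 oocyte marker genes from their mean over all libraries (right). CON 1 is the highest CON library in both panels and cKO 1 the highest of all, whereas cKO 2 is low for *Eif4e1b* (15.3 CPM) but above 0 for the markers.

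The general cap-binding protein *Eif4e* had 93.4, 122, 114 and 116 CPM in cKO, against 122, 119, 128 and 128 CPM in CON (log2 fold change -0.16, SE 0.08, adjusted p = 0.195), with cKO 1 lowest. *Eif4e2*, which binds caps but represses translation, had 96.1, 101, 102 and 108 CPM in cKO, against 104, 105, 109 and 112 CPM in CON (adjusted p = 0.322). *Eif4e3* had 20.3, 18.6, 25.5 and 27.6 CPM in cKO, against 23.8, 28.1, 26.2 and 25.02 CPM in CON (adjusted p = 0.389). All 3 genes overlapped between the genotypes.

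Proteins that bind eIF4E and keep it from eIF4G did not differ past the threshold. *Eif4enif1* (4E-T), which stores repressed mRNA in oocytes and whose variants are linked to primary ovarian insufficiency in humans, had 178, 179, 155 and 162 CPM in cKO, against 156, 146, 149.6 and 137 CPM in CON. Only cKO 3 lay below the highest CON library (log2 fold change 0.19, SE 0.06, adjusted p = 0.0779). *Eif4ebp1*, the target of mTOR, had 32.2, 40.6, 40.7 and 40.1 CPM in cKO, against 39.9, 40.2, 42.5 and 43.3 CPM in CON, with cKO 1 apart from the rest (log2 fold change -0.11, adjusted p = 0.383). *Eif4ebp2* had 71.5, 64.8, 60.1 and 68.95 CPM in cKO, against 64.05, 67.5, 63.8 and 67.2 CPM in CON (adjusted p = 0.893). *Eif4ebp3* had 6.22, 5.54, 6.0 and 6.29 CPM in cKO, against 6.53, 7.07, 6.89 and 6.41 CPM in CON (adjusted p = 0.341), a small difference without overlap, in a gene with 62.8% of its stretches shared with another gene model.

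The scaffold eIF4G has a broad form, *Eif4g1*, with 485, 546, 530.3 and 577 CPM in cKO, against 556, 524, 523 and 541 CPM in CON (log2 fold change -0.0049, adjusted p = 0.965). *Eif4g3*, its paralog, had 239, 253, 229 and 233 CPM in cKO, against 234, 198, 189.8 and 190.2 CPM in CON (log2 fold change 0.23, SE 0.07, adjusted p = 0.0722). CON 1 reached the cKO range and the other CON libraries were lower. *Eif4g2* (DAP5), which lacks the eIF4E-binding part and serves initiation without it, ranked 30 of all genes by mean CPM, with 1193, 1241, 1191 and 1239 CPM in cKO, against 1271, 1335, 1331 and 1325 CPM in CON (log2 fold change -0.11, adjusted p = 0.141). Its cKO libraries were all below its CON libraries.

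Helicases of the eIF4A family unwind the mRNA ahead of the scanning subunit. *Eif4a1*, the main form, had 509, 561, 518 and 557 CPM in cKO, against 583, 593, 619 and 601 CPM in CON (log2 fold change -0.16, SE 0.05, adjusted p = 0.0765). Of its 100-base stretches 22.6% recur in other genes, so its level is uncertain. *Eif4a2*, its paralog, had 326, 318, 349 and 336 CPM in cKO, against 314, 293, 318 and 297 CPM in CON (log2 fold change 0.12, SE 0.05, adjusted p = 0.137). Neither passed, and the signs were opposite: *Eif4a1* had every cKO library below CON and *Eif4a2* was the 1 member with every cKO library above CON. For *Eif4a2* this was nearly a tie, with 318.3 CPM in cKO 2 against 317.9 CPM in CON 3. The helicase cofactors were lower in most cKO libraries. *Eif4b* had 623, 554, 541 and 523 CPM in cKO, against 584, 671, 623 and 601 CPM in CON (log2 fold change -0.15, adjusted p = 0.188), and cKO 1 stood above the rest of its group. *Eif4h* had 387, 406, 428 and 447 CPM in cKO, against 441, 467, 491 and 483 CPM in CON (log2 fold change -0.17, adjusted p = 0.0891). *Eif4a3*, which marks exon junctions, was at -0.17 (adjusted p = 0.122), and *Eif4a3l1* had 4 reads in all and was not tested.

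In the group of subunit joining and eIF5A, 1 of 5 tested members fell, where 3.28% of all genes did. *Eif5a* (chromosome 11, 69916712 to 69921958), which carries the modified residue hypusine and relieves ribosomes stalled on proline, had 350.4, 413, 387 and 424 CPM in cKO, against 452, 473, 482 and 484 CPM in CON. Every cKO library was below every CON library, with cKO 1 the lowest (log2 fold change -0.27, SE 0.06, adjusted p = 0.0403). *Eif5a2*, the minor paralog, had 22.2, 26.9, 23.7 and 24.6 CPM in cKO, against 23.3, 23.5, 23.9 and 19.4 CPM in CON (log2 fold change 0.11, adjusted p = 0.427). *Eif6*, which keeps large subunits from joining too early, had 107, 112, 106 and 105 CPM in cKO, against 113, 111, 118 and 114 CPM in CON (log2 fold change -0.08, adjusted p = 0.231). Both overlapped between the genotypes, and *Eif5* and *Eif5b* lay at 0.02 and -0.03.

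Enzymes that modify the elongation factors were mostly weakly expressed and none of 7 passed. At an unadjusted p under 0.05, 2 were lower, where 13.3% of all genes were. *Eef1akmt1*, a lysine methyltransferase of eEF1A, had 13.3, 14.2, 16.1 and 13.7 CPM in cKO, against 17.4, 16.7, 18.6 and 19.2 CPM in CON, without overlap (log2 fold change -0.32, SE 0.09, adjusted p = 0.0507). *Eef2kmt*, the methyltransferase of eEF2, had 20.1, 18.3, 18.9 and 20.8 CPM in cKO, against 21.6, 21.3, 24.2 and 23.02 CPM in CON (log2 fold change -0.21, SE 0.07, adjusted p = 0.0988). *Eef2k*, the kinase that halts eEF2, had 98.3, 89.3, 87.02 and 97.6 CPM in cKO, against 89.5, 90.4, 96.5 and 95.6 CPM in CON and a log2 fold change of 0.0013. The pair of methyltransferases was lower in all 4 cKO libraries and the kinase was not. Of the other 4, *Eef1akmt3* had 94 reads in all and an SE of 0.71, and the rest lay between -0.18 and -0.06. The readthrough gene *Eef1akmt4-ece2* was listed at 0, and 94.4% of its 100-base stretches belong to other genes as well.

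Within a library, the ratio of 2 paralogs does not depend on scaling, and 8 pairs were compared by an exact permutation test over the 70 assignments of 4 against 4 libraries (two-sided, smallest possible p = 0.0286). *Eif4a2* over *Eif4a1* had a log2 ratio of -0.69 ± 0.11 in cKO and -0.97 ± 0.06 in CON (SD, n = 4 each), a difference of 0.28 (exact p = 0.0286, adjusted over the 8 pairs 0.0762). *Eif5a2* over *Eif5a* had -4.01 ± 0.07 in cKO and -4.39 ± 0.17 in CON, a difference of 0.38 (exact p = 0.0286, adjusted 0.0762, SD, n = 4 each). *Eif1b* over *Eif1* had -2.03 ± 0.06 in cKO and -2.23 ± 0.09 in CON, a difference of 0.20 (exact p = 0.0286, adjusted 0.0762, SD, n = 4 each). In these 3 pairs the genotypes did not overlap and the less abundant paralog gained relative to the main one, but none reached 0.05 after adjustment. The counts of *Eif4a1* and *Eif1* carry the uncertainty of shared stretches. No share was computed for gene pairs in general, and of single genes 9.1% lay fully below and 8.93% fully above. Paralogs also differ in summed exon length. *Eif5a2* (5027 bases) and *Eif4a2* (5338) are longer than *Eif5a* (2377) and *Eif4a1* (4334), whereas *Eif1b* (1125) is shorter than *Eif1* (2098). The part of the length trend given below was not tested for these ratios. *Eif4e1b* over *Eif4e* differed by 0.71 and *Eif4g3* over *Eif4g1* by 0.24 (exact p = 0.0571, adjusted 0.0914 for each), with overlap. *Eif4e2* over *Eif4e*, *Eif4e3* over *Eif4e* and *Eif4ebp2* over *Eif4ebp1* differed by 0.09, -0.01 and 0.13 (adjusted p 0.381, 1 and 0.490 by the same exact test).

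**Figure D4:**
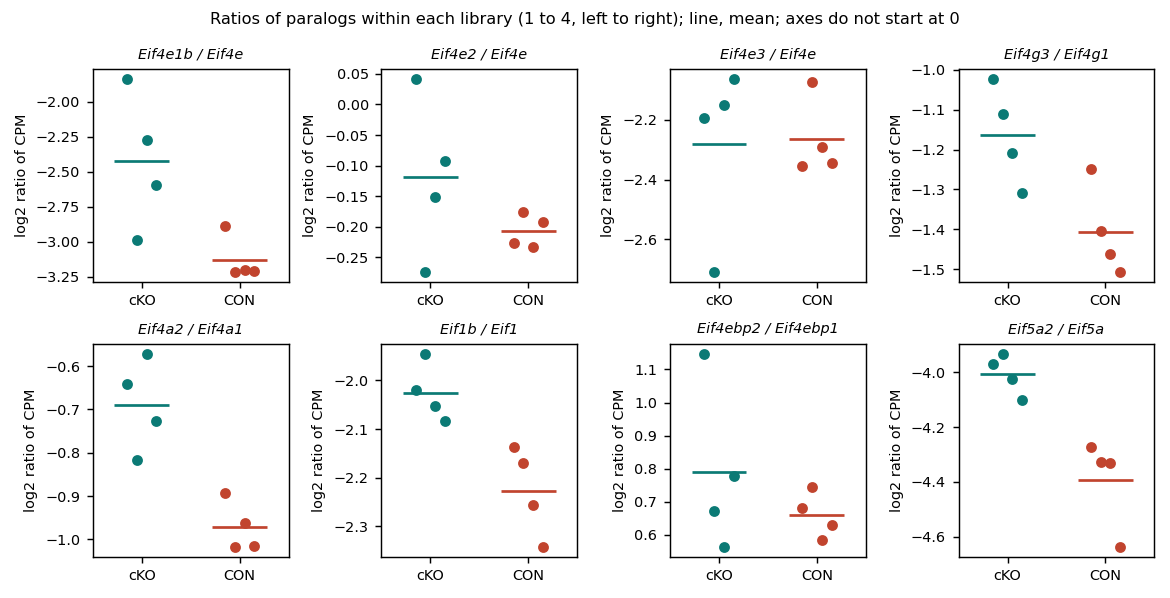
Log2 ratio of the CPM of 8 paralog pairs within each library, 1 point per library from 1 to 4 in each genotype, with the group mean as a line. The cKO points of *Eif4a2* over *Eif4a1*, *Eif1b* over *Eif1* and *Eif5a2* over *Eif5a* lie above all CON points, and in the other 5 pairs the genotypes overlap. The axes do not start at 0.

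Many mRNAs of the translation machinery begin with a C followed by an unbroken run of pyrimidines, the terminal oligopyrimidine (TOP) motif, through which mTOR signalling sets their translation and stability. Of 9 members counted as TOP mRNAs from studies of human cells (*Eef1a1*, *Eef1b2*, *Eef1d*, *Eef1g*, *Eef2*, *Eif3e*, *Eif3f*, *Eif3h* and *Eif4b*), 6 fell, where 3.28% of all genes did. At an unadjusted p under 0.05, 8 were lower (13.3% of all genes), and the median log2 fold change of the 9 was -0.24. Most of the 9 are abundant, and of all genes at a mean log2 CPM of 8 or more 18.5% fell. The TOP list shares its genes with the results above and is not separate evidence. Transcription starts of 5 of the 9 were found in the RefSeq promoter table (GRCm38.p6), and the 30 bases around each, from 15 before the start to 15 from it on, are shown to let the starts be compared, with the longest pyrimidine run in capitals.
Eef1a1 (chr9:78481710-78481739, minus strand): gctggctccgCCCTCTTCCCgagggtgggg
Eef1b2 (chr1:63176816-63176845, plus strand): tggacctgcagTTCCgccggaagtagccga
Eef2 (chr10:81176616-81176645, plus strand): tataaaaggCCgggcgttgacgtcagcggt
Eif3f (chr7:108934400-108934429, plus strand): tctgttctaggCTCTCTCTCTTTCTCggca
Eif4b (chr15:102073758-102073787, plus strand): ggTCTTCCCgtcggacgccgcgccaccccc

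The annotated starts of *Eef1a1* and *Eif3f* lay within or next to runs of 10 and 15 pyrimidines, and *Eif4b* had a run of 7 that ended before its start. The annotated starts of *Eef1b2* and *Eef2* showed runs of 4 and 2, and no match says only that these letters are not at the annotated base. A run of 6 or more in this window was found in 3 of these 5 genes, in 34.5% of the 55 members with a promoter in the table and in 33.4% of all tested genes with one.

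NR5A2 binds extended nuclear receptor motifs, and the letters CAAGGTCA and CAAGGCCA were searched on both strands (as TGACCTTG and TGGCCTTG on the other) in the 300 bases from 250 before to 50 after each start. They occurred in 2 of 55 members (3.64%), *Eif4e* and *Eef2k*, and in 3.58% of all tested genes. None of the 5 members that passed and had a promoter in the table held a match. A match is no proof of binding, and its absence concerns this window only.

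Transcript length and abundance moved with the fold changes. Over all genes, the median log2 fold change went up with summed exon length, at -0.21 below 1000 bases, -0.12 up to 2000, -0.05 up to 4000, 0.02 up to 8000 and 0.09 above. The members that passed had a median exon length of 2649 bases (1612 to 6719), against 4468 bases for the 55 tested members that did not pass and 4435 for all genes. In the class from 2000 to 4000 bases, 7 of 26 members fell where 3.95% of all genes did, and from 4000 to 8000 bases 2 of 26 fell where 1.7% did. From 1000 to 2000 bases 1 of 6 members fell where 9.1% of genes did, and the median of the members was -0.09. None fell of 2 members below 1000 bases, where 15.3% of genes did, or of 5 members from 8000 bases on, where 0.796% did. Calls also varied with abundance. At a mean log2 CPM of 8 or more, 6 of 18 members and 18.5% of all 611 genes fell, whereas 2.45% of those genes rose. From 6 to 8, 4 of 25 members fell where 4.16% of genes did, and from 4 to 6 none of 19 where 2.77% did. When the trend with length was removed from each library, *Eef1b2*, *Eef1g*, *Eif3i* and *Eif3e* still passed, the other 6 did not, and *Eif1b* rose. The log2 fold changes of all 10 then lay between -0.38 and -0.16, the median over the members stayed at -0.08, and 22 members were again lower with an unadjusted p under 0.05, while the genes passing in the whole table numbered 409, against 1056 with the trend kept.

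**Figure D5:**
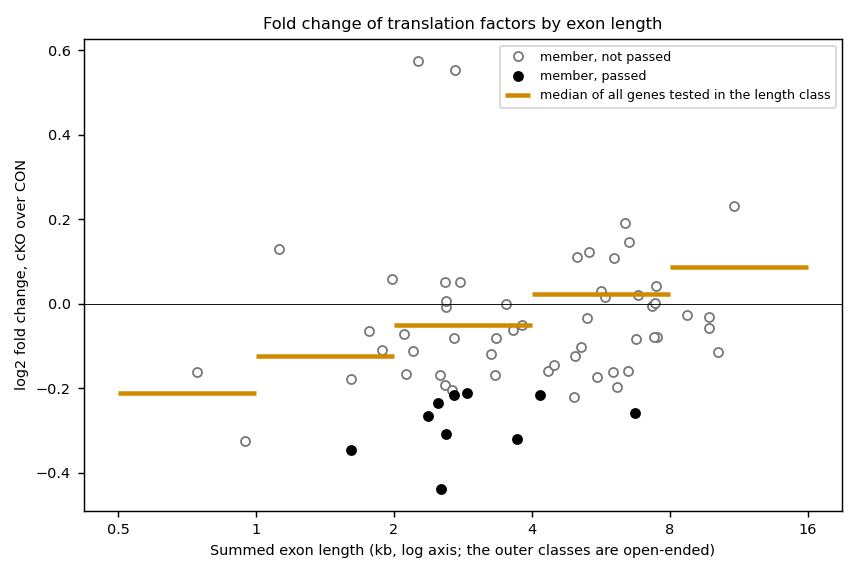
Log2 fold change of cKO over CON of the 65 tested members against summed exon length on a log axis. Filled points are the 10 members that passed, and the bars give the median of all tested genes in 5 length classes, from -0.21 in the shortest to 0.09 in the longest.

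The fit was repeated without libraries that stood apart in other cell types. In all 10 members every cKO library lay below every CON library, so leaving libraries out could hardly turn their direction. The part of those cell types was not tested. CON 1 and CON 3 had the most neutrophil transcripts. They also had the most red blood cell transcripts, with 149 and 85.0 CPM summed over markers, against 10.2 to 20.9 CPM elsewhere. Without CON 1 and CON 3, *Eef1b2*, *Eif3h* and *Eif3i* passed. The log2 fold changes of all 10 stayed between -0.49 and -0.20. Without cKO 1 and cKO 2, which were high in immediate-early genes and low in smooth muscle markers, 6 of the 10 passed, *Eif4e1b* rose, and the fold changes of the 10 stayed between -0.42 and -0.19.

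Partners of these factors were examined as 6 further lists. In poly(A)-binding proteins and their partners, 1 of 7 fell, where 3.28% of all genes did: *Paip2*, the repressor of the poly(A)-binding protein, had 156, 150.0, 153 and 149.9 CPM in cKO, against 164, 169, 175 and 176 CPM in CON (log2 fold change -0.17, SE 0.04, adjusted p = 0.0432). *Pabpc1*, the poly(A)-binding protein that links the mRNA tail to eIF4G, had 1185, 1035, 1064 and 1064 CPM in cKO, against 1234, 1338, 1230.5 and 1178 CPM in CON (log2 fold change -0.20, adjusted p = 0.0759), with cKO 1 overlapping CON. Of 11 genes that signal to eIF4F and eEF2, 1 rose (3.64% of all genes did), with a median log2 fold change of 0.19. At an unadjusted p under 0.05 there were 6 higher and 1 lower (15.5% and 13.3% of all genes). The gene that rose was *Mknk1*, the kinase that phosphorylates eIF4E, with 39.8, 44.3, 45.5 and 42.7 CPM in cKO, against 37.98, 35.8, 36.5 and 36.2 CPM in CON (log2 fold change 0.23, SE 0.06, adjusted p = 0.0421). *Rps6kb2*, a ribosomal S6 kinase, had a log2 fold change of 0.31 (adjusted p = 0.0536). The remaining higher genes were *Mtor* (0.23) and the inhibitors *Tsc1* (0.19), *Tsc2* (0.26) and *Pdcd4* (0.21). The list thus mixes genes that activate and inhibit, and its median gives no direction of signalling. The lower gene was *Rheb*, the direct activator of mTOR, with 80.4, 92.4, 90.6 and 93.1 CPM in cKO, against 95.3, 104, 109 and 107 CPM in CON (log2 fold change -0.23, SE 0.06, adjusted p = 0.0576), without overlap.

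None of the other 4 lists held a gene that passed, and at an unadjusted p under 0.05 they held 3 lower and 2 higher genes (13.3% and 15.5% of all genes). For termination and ribosome recycling, the median over 8 tested genes was 0.01, and *Hbs1l*, which rescues stalled ribosomes, had a log2 fold change of 0.18 (adjusted p = 0.0624), with *Mcts1* at -0.22 (0.145). For the integrated stress response, which phosphorylated eIF2 alpha sets off, the median over 10 was 0.02, and *Gcn1* and *Asns* had 0.20 and -0.18 (adjusted p 0.0986 and 0.323). Enzymes that build hypusine on eIF5A and diphthamide on eEF2 had a median of -0.04 over 8, with *Dph7* at -0.17 and *Dph5* at -0.12 (adjusted p 0.153 and 0.410). Mitochondrial translation factors had a median of -0.01 over 9, with *Tufm*, the mitochondrial counterpart of eEF1A, at -0.15 and *Mrrf* at -0.12 (adjusted p 0.0788 and 0.260). Against the -0.20 of the cytosolic elongation factors these medians stood near that of all genes, but the lists were not compared by a test.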

How the data were processed

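RNA was extracted from whole PND4 ovaries and stranded mRNA libraries were sequenced as read pairs. The authors removed reads of low base quality, used STAR to align the rest to the GRCm38 (mm10) genome, and counted reads over genes by featureCounts to give the deposited counts (program versions, annotation and strand setting are not given in the sources used here). A deposited table of CPM and of the authors' own comparison was not used. Columns could be joined to a genotype only, so libraries carry the column numbers.

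Gene IDs were joined to symbols for 99.7% of the table. The counts entered edgeR 4.0.16 under R 4.3.3, with TMM scaling, the filterByExpr filter and a robust quasi-likelihood F test adjusted over all genes by Benjamini-Hochberg. SE was obtained by dividing the log2 fold change by the square root of F. Exon lengths came from GENCODE M21 and promoters from RefSeq. The scripts were tested on simulated data. Members and lists were chosen with earlier results of these data known. Values per library were given for members with an adjusted p under 0.05, for the 2 members with the smallest p and the 1 with the most reads in each role, and for paralogs compared. *Rheb*, *Eef1d*, *Eef1e1*, *Eif3c*, *Eif3d*, *Eif3g*, *Eif3l*, *Eif3m*, *Eif4a3*, *Eif5*, *Eif5b* and *Eef1akmt3* were named after their values were seen. So were *Mtor*, *Tsc1*, *Tsc2*, *Pdcd4*, *Amhr2*, *Kit*, *Gdf9* and *Zp2*. Alternatives were other scalings, other count filters, DESeq2 1.42.0, limma-voom 3.58.1, 1 surrogate variable (sva 3.50.0) and leaving out each library. Removal of a length trend, joint removal of 2 libraries and DESeq2 with a library left out were chosen after seeing the data.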

Additional observations from a re-analysis of the deposited data

Results flagged for a closer look

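In 88 groups of 4 libraries of the members described by library, 4 held a library far from the other 3 by Dixon's test at its 95% critical value, and chance flags about 1 in 20 groups. *Eif4ebp1* had 32.2 CPM in cKO 1, against 40.1 to 40.7 CPM in the other cKO libraries. *Eef1b2* had 531.6 CPM in CON 1, against 603.9 to 612.1 CPM in the other CON libraries, and this library lay nearest to the cKO libraries. *Eif4g2* had 1271 CPM in CON 1, against 1325 to 1335 CPM in the others. *Eif5a2* had 19.4 CPM in CON 4, against 23.3 to 23.9 CPM in the others, and the difference in its log2 ratio to *Eif5a* was 0.38 with all libraries and 0.30 to 0.42 with 1 left out in turn.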

How the results depend on the processing

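The count of members that fell (10) ranged from 0 to 14 and that of members that rose (0) from 0 to 2 when 1 library was left out in turn, and the values behind the 0 are given above. The share of all genes that fell was 3.28% in the reported fit and 0% to 4.79% with 1 library left out. It was 4.79% without CON 1, where 14 members fell, and 0% without CON 2 or CON 3, where 0 did. Without CON 4 or without cKO 3, 3 members fell (0.637% and 0.9% of all genes), and without cKO 2, 5 fell (1.13%). Leaving out cKO 1 or cKO 4 gave 8 and 10 members (3.12% and 3.73%). Without CON 1 and CON 3 there were 3 members lower (0.523% of all genes), without cKO 1 and cKO 2 there were 6 lower and 1 higher (3.21% of all genes lower), and with the length trend removed 4 lower and 1 higher (1.19% of all genes lower). DESeq2 gave 18 lower (6.44% of all genes) and 3 higher (7.74%). As each library was left out, it gave 9 to 18 lower (16 without cKO 4) with 0 to 3 higher. In these runs 2.81% to 7.07% of all genes were lower. Voom with quality weights gave 17 lower (7.68% of all genes) and 2 higher. Past a fold of 1.5, 1 member was higher under quality weights and without cKO 1 and cKO 2, and 0 to 1 were higher as single libraries were left out, in edgeR and in DESeq2 alike. Members higher at an unadjusted p under 0.05 (6) numbered 3 under upper quartile scaling and 3 to 5 with 1 library left out. The median log2 fold change of the members (-0.08) was -0.11 under upper quartile scaling and -0.048 with library size alone. All other alternatives kept these counts within 1.5 times, and no named gene changed sign past the threshold. No paired analysis was possible because the labels share no replicate numbers or litters between genotypes. With 4 libraries a group, the paralog ratios could not go below an exact p of 0.0286.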
